A study of Mus musculus with 4 samples.

Results

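Cathepsins and other lysosomal hydrolases were examined in germinal centre (GC) and naive B cells of the mouse. The group was 10 genes, Ctsa, Ctsb, Ctsc, Ctsd, Ctsh, Ctsl, Ctss, Ctsz, Lgmn and Fuca1, of 18194 genes on the array. Every probe set that the platform annotation assigns to one of these symbols alone was taken, which gave 24 probe sets of 45101. The group was put together in part because Fuca1 had read low in GC cells, so the GC-naive values of its members are a description and carry no test.

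Cathepsins are proteases of the endosome and lysosome that are made as inactive precursors and become active at acid pH. In B cells they degrade antigen taken up through the B cell receptor and trim the invariant chain, Cd74, which blocks the peptide groove of MHC class II until it is cut away. Lysosomal glycosidases such as the fucosidase Fuca1 take sugars off glycoproteins and glycolipids in the same compartment. GC B cells present antigen to follicular helper T cells, and this presentation is part of how they are selected.

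The study measured 4 populations, each on a single array, so there were no replicates within a population. GC cells were sorted as B220+PNA+Fas+ and naive cells as B220+PNA-Fas-. One pair came from peripheral lymph nodes (pLN) of adult wild type C57BL6/J mice given TNP-KLH, a hapten-carrier protein, in incomplete Freund's adjuvant. The other pair was taken from Peyer's patches (PP), lymphoid tissue in the wall of the small intestine, of adult mice of the same strain that received no treatment, and all mice were kept free of specific pathogens. Each sample was pooled from 3 to 5 mice, which removes the variation between mice from every value, and tissue and immunisation cannot be told apart. The labels do not say whether the GC and naive cells of a tissue came from the same mice.

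Signals are array intensities scaled to a trimmed mean of 500 on each array. The detection level of an array was the 90th percentile of 74 probe sets for genes of other tissues, and stood at 32.4 (GC) and 73.3 (naive) in pLN and 39.8 (GC) and 113 (naive) in PP. Log2 differences are on the log2(signal + 12.2) scale, which understates the change of dim probe sets, and folds are ratios of signals. Where the dimmer array lay below its level, the fold is given as "at least" and sets the brighter signal against that level. The sort marker Fas was higher on both GC arrays, with a log2 fold of 3.30 ± 0.38 (SE, 2 tissues, limma adjusted p = 5.01e-05). The B cell markers Cd79a, Cd79b, Ms4a1, Ebf1, Pax5 and Ptprc were above the level on all 4 arrays. The 3' bias of the Gapdh control moved with cell type. The Gapdh signal at the 3' end over that at the 5' end was 1.48 and 1.67 on the GC arrays of pLN and PP, against 18.7 and 96.4 on the naive arrays. In pLN the 5' Gapdh probes gave 7068 (GC) and 949 (naive) and the 3' probes 10457 and 17780.2. In PP the 5' probes gave 6473 (GC) and 328 (naive) and the 3' probes 10781 and 31609.7. Hybridisation spike-ins (18 probe sets) had medians of 4092 and 3964 on the GC arrays against 7500 and 15677 on the naive arrays. The part of these differences in the GC-naive values was not tested. In bulk samples such as these, fewer cells of a type and less RNA per cell cannot be told apart.

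Many lysosomal genes carry an E-box in their promoter that is bound by Tfeb and its relatives. To show where such letters stand for the members, the promoter table was searched for CACGTG, which reads the same on both strands. RefSeq windows of 300 bases (250 before to 50 after an annotated start, GRCm38.p6) were at hand for 8 of the 10 genes, in 10 windows. The letters occurred in 4 genes, Ctsa, Ctsd, Ctsl and Lgmn, and in 4 of the 10 windows, against 7.15% of all 32851 windows and 22.2% of 90 windows of other lysosomal genes. The 6 matches are shown 5' to 3' on the gene's strand with the E-box in capitals, and the base given is the first of the E-box.
Ctsa, chr2:164833749-164833778, + strand, at base -12 from the start: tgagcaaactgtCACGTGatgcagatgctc
Ctsa, chr2:164833766-164833795, + strand, at base 6 from the start: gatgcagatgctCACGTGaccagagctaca
Ctsd, chr7:142388055-142388077, - strand, at base -245 from the start: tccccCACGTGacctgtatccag
Ctsd, chr7:142387908-142387937, - strand, at base -98 from the start: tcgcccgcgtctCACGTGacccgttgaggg
Ctsl, chr13:64370739-64370768, - strand, at base -236 from the start: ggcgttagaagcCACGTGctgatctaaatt
Lgmn, chr12:102439124-102439153, - strand, at base -49 from the start: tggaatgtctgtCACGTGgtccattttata
The longer form TCACGTG or CACGTGA, which contains the same letters and lies closer to the Tfeb site, was in 3 of the 10 windows, in 21.1% of the other lysosomal windows and in 3.77% of all windows. The full palindrome, CACGTG with GT before it and AC after it, was in 0 of the 10 windows, 2.22% of the other lysosomal windows and 0.326% of all. A match here is a description of the letters and not evidence of binding. The array values of the 4 genes with the E-box are given below, and a relation between the letters and these values was not tested.

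Of the 24 probe sets, 15 were above the detection level on all 4 arrays, 6 on some of them and 3 on none. The 3 below the level throughout were 1444987_at of Ctsb, 1457724_at of Ctsl and 1453805_at of Fuca1. Their signals ranged from 2.71 to 101, and no fold is given for them. Every gene kept at least 1 measured probe set.

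**Figure D1:**
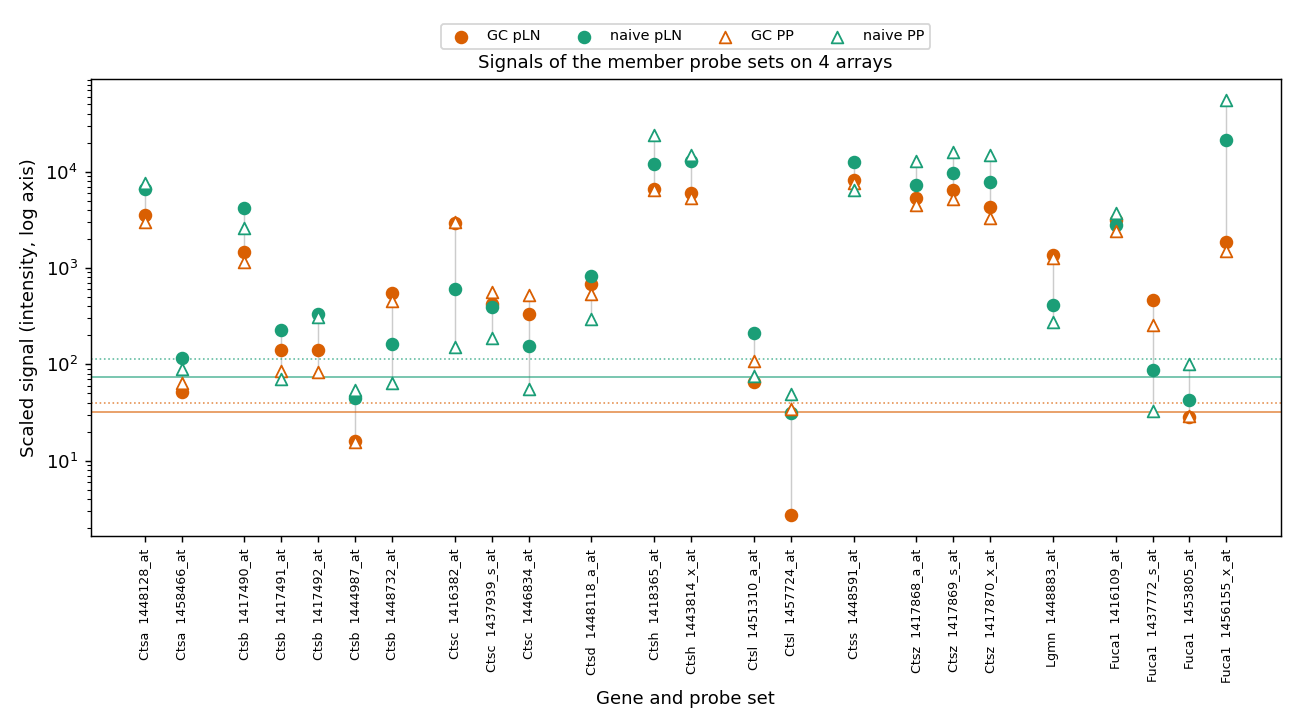
Scaled signal (log axis) of the 24 probe sets on the 4 arrays. Circles are pLN and triangles PP, orange is GC and green is naive, each symbol is 1 array, and the horizontal lines are the detection levels of the arrays in the same colours (solid for pLN, dotted for PP). The green symbols of Ctsa, Ctsh and Ctsz lie above the orange ones, except that naive PP is below its level for Ctsa 1458466_at. For 1448883_at of Lgmn and 1416382_at of Ctsc the orange symbols lie above.

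The endopeptidases that act on the invariant chain were described first. Ctss, the main invariant chain protease of B cells, read 8165 (GC) and 12701 (naive) in pLN and 7605 (GC) and 6458 (naive) in PP with its single probe set. The signal in GC cells was thus 1.56-fold lower than in naive cells in pLN and 1.18-fold higher in PP, and most of that contrast came from the 2 naive arrays, which differed 1.97-fold. Ctsl, an endopeptidase that takes this role in thymic epithelium, was dim. Its brighter probe set, 1451310_a_at, read 65.9 (GC) and 209 (naive) in pLN and 107.5 (GC) and 76.2 (naive) in PP, the last below the level. Only the pLN arrays allowed a fold, which was 3.18-fold lower in GC cells.

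Ctsb, which cuts within proteins and also removes dipeptides from their ends, had 5 probe sets that disagreed. The probe set 1417490_at read 1456 (GC) and 4233 (naive) in pLN and 1157 (GC) and 2620.2 (naive) in PP, which is 2.91-fold and 2.26-fold lower in GC cells of pLN and PP. The probe set 1417492_at was likewise lower, 2.39-fold and 3.74-fold. In contrast, 1448732_at read 556 and 457 on the GC arrays against 164 and 64.3 on the naive arrays, or 3.39-fold higher in GC cells of pLN and at least 4.03-fold higher in those of PP. The remaining one, 1417491_at, was 1.63-fold lower in GC cells of pLN, and in PP its signals of 86.3 and 70.0 gave no fold. With these probe sets no single direction can be given for Ctsb.

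Lgmn, the asparaginyl endopeptidase that also matures other cathepsins, was brighter in GC cells. Its only probe set read 1351 (GC) and 408 (naive) in pLN and 1258 (GC) and 277 (naive) in PP. This was 3.31-fold higher in pLN and 4.55-fold higher in PP, and both GC arrays lay above both naive arrays. The aspartic protease Ctsd read 680 (GC) and 820.4 (naive) in pLN and 539 (GC) and 293 (naive) in PP. Here the lowest signal was that of the naive PP array, and the GC-naive difference was 1.21-fold lower in pLN and 1.84-fold higher in PP.

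Of the enzymes that trim the ends of peptides, Ctsc differed from the others. Ctsc, the dipeptidyl peptidase that activates granule serine proteases, read 2896 (GC) and 609 (naive) in pLN and 3027 (GC) and 153 (naive) in PP with 1416382_at. GC cells were 4.76-fold higher in pLN and 19.8-fold higher in PP, the largest increase among the members. The probe set 1446834_at gave 2.15-fold and at least 4.64-fold in the same direction. With 1437939_s_at the 2 pLN arrays were nearly equal, at 419 and 396, and GC cells of PP were 3.01-fold higher.

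The aminopeptidase Ctsh and the carboxypeptidases Ctsz and Ctsa read lower in GC cells in both tissues with every probe set that gave a fold. Only 1417870_x_at of Ctsz kept a negative mean when arrays were scaled to the spike-ins. With quantile normalization and cyclic loess all these means stayed negative, but those of Ctsh, Ctsz and Ctsa 1448128_at were smaller in size. The mean log2 difference of Ctsh 1418365_at went from -1.36 to -0.49 (quantile) and -0.37 (loess). That of 1443814_x_at went from -1.28 to -0.57 and -0.39, and that of Ctsz 1417868_a_at from -0.98 to -0.37 and -0.23. The dim Ctsa 1458466_at went the other way, to -0.97 with quantile normalization. Ctsh 1418365_at read 6633 (GC) and 11841 (naive) in pLN and 6442 (GC) and 23840 (naive) in PP, which is 1.79-fold and 3.70-fold lower in GC cells. Its second probe set was 2.16-fold and 2.75-fold lower. The 3 probe sets of Ctsz, also called cathepsin X, were 1.37-fold to 1.82-fold lower in pLN and 2.86-fold to 4.50-fold lower in PP. For 1417869_s_at, the brightest of them, the signals were 6438 (GC) and 9749 (naive) in pLN and 5187 (GC) and 15857 (naive) in PP. Ctsa, a serine carboxypeptidase that also protects beta-galactosidase and neuraminidase in the lysosome, read 3540.4 (GC) and 6613 (naive) in pLN and 2981 (GC) and 7617 (naive) in PP with 1448128_at. It was 1.87-fold and 2.55-fold lower in GC cells. Its dim probe set 1458466_at was 2.25-fold lower in pLN and gave no fold in PP.

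Fuca1, the lysosomal alpha-fucosidase, showed the widest disagreement. The probe set 1456155_x_at, on which the low reading in GC cells rested, read 1860.1 (GC) and 21431 (naive) in pLN and 1501 (GC) and 55174 (naive) in PP. It was 11.5-fold lower in GC cells of pLN and 36.8-fold lower in those of PP. The probe set 1416109_at read 3167 (GC) and 2822 (naive) in pLN and 2415 (GC) and 3746 (naive) in PP, and differed by no more than 1.55-fold within a tissue. The probe set 1437772_s_at went the other way, with 461 and 255 on the GC arrays against 87.9 and 32.7 on the naive arrays, or 5.24-fold and at least 2.25-fold higher in GC cells. In the maker's naming, the suffix x marks probes that may bind unrelated sequences and s a probe set shared by several transcripts. The platform table gives a source accession for 1416109_at and none for the other 2. The low level of Fuca1 in GC cells is therefore a statement about 1 of 3 measured probe sets. The suffixes x and s, with the same limit, also stand on Ctsh 1443814_x_at, Ctsz 1417870_x_at and 1417869_s_at, Ctsc 1437939_s_at and Ctse 1427797_s_at.

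Across the members, 5 probe sets were at least 2-fold higher in GC cells in both tissues and 4 were at least 2-fold lower. Over all 20211 probe sets that passed the level on both arrays for GC or for naive cells, 19.6% were higher and 13.4% lower by this rule. Since the members were chosen on this contrast, nothing is read from the counts. The 5 higher were Ctsb 1448732_at, Ctsc 1416382_at and 1446834_at, Lgmn and Fuca1 1437772_s_at. The 4 lower were Ctsb 1417490_at and 1417492_at, Ctsh 1443814_x_at and Fuca1 1456155_x_at. The median log2 difference of the 21 member probe sets was -0.64 in pLN and -0.42 in PP, beside 0.22 and 0.45 over all probe sets. Under spike-in scaling, which moved the median of all genes from -0.02 to 1.33, 10 of the 21 kept their sign, 6 were 2-fold higher in both tissues and 1 was lower.

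Ctsb and Fuca1 each had probe sets 2-fold higher and 2-fold lower in both tissues. Such opposition was found in 4.85% of the 5335 genes for which at least 2 probe sets passed the level, and in these 2 of the 6 member genes that could show it. The mean log2 difference of the Fuca1 probe sets spanned 6.76, wider than in 99.9% of those genes, and that of Ctsb spanned 3.63, wider than in 90.6%. The low end for Fuca1 was the reading by which it was chosen, so nothing is read from its rank or from the 2 of 6. Fuca1 had 3 such probe sets and Ctsb 4, whereas the genes they are ranked among had 2 or more. The probe sets of Ctsh spanned only 0.078, those of Ctsa 0.41 and those of Ctsz 0.53. The 5' and 3' controls of Gapdh, given above, also differed in opposite directions between GC and naive arrays. Where the member probe sets lie along their transcripts was not analysed here.

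**Figure D2:**
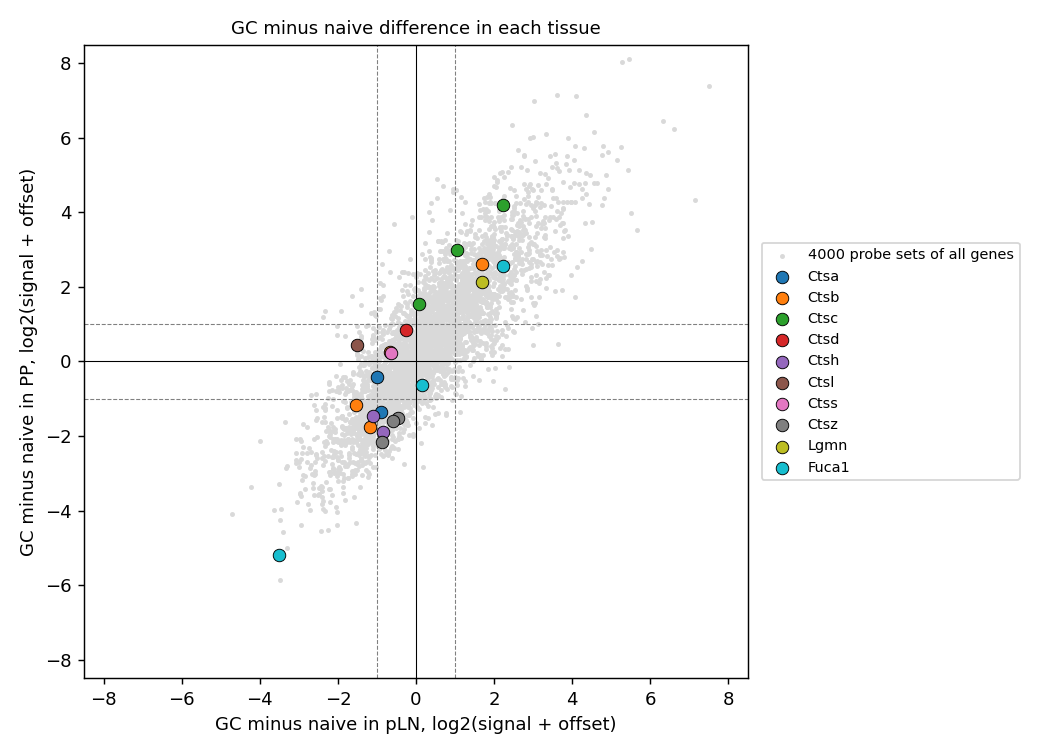
GC minus naive difference in pLN (x axis) and in PP (y axis), both on the log2(signal + offset) scale, for the 21 member probe sets that passed the level on both GC or both naive arrays, coloured by gene. Grey points are 4000 probe sets of all genes drawn at random, and dashed lines mark 2-fold. Fuca1 appears at the lower left (-3.52 and -5.19), near the centre and at the upper right (2.24 and 2.57), and Ctsc and Lgmn lie at the upper right. Scaling to the spike-ins moves the cloud upward and to the right and turns most members at the lower left positive.

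Markers of other cells were read beside these values, because macrophages and dendritic cells are rich in cathepsins. Of 13 macrophage markers, 6 (GC) and 3 (naive) passed the level in pLN, and 4 (GC) and 4 (naive) in PP. Their summed signals were 3206 and 4377 on the GC arrays against 1078 and 1518 on the naive arrays. The lipid carrier Apoe made up most of the GC sums, at 2528 and 3561 against 304 and 492. Of the 4 markers tested, Apoe (2.92 ± 0.38) and the lysozyme gene Lyz2 (2.42 ± 0.49) were called higher in GC cells by limma. The complement gene C1qb was above the level on all 4 arrays and read 89.9 (GC) and 165 (naive) in pLN and 115 (GC) and 272 (naive) in PP. The defining marker Adgre1 (F4/80) was above the level on both pLN arrays, at 55.8 (GC) and 323 (naive), which is 5.78-fold lower in GC cells, and below it in PP. Cd5l was above it on both GC arrays, at 156 and 171, and Csf1r and Mertk only on naive PP, at 155 and 128. No marker was at 0, and C1qa, C1qc, Cd14, Fcgr1 and Marco were below the level on all 4 arrays. Mrc1 was above it only on GC pLN, at 46.4. Of 6 dendritic cell markers, 3 (GC) and 3 (naive) passed the level in pLN and 4 (GC) and 0 (naive) in PP, with sums of 1320.4 and 1893 on the GC arrays against 641 and 275 on the naive arrays. Among them Flt3, a growth factor receptor, read 1083 and 1231 on the GC arrays against 71.3 and 14.3 on the naive arrays and was called higher by limma (4.63 ± 0.52). Itgax (CD11c) was above the level on naive pLN, at 199, and on GC PP, at 424, and Siglech was highest on naive pLN, at 235. Of 6 granulocyte markers, 3 were above the level on GC pLN, S100a9 (481), S100a8 (209) and Ngp (63.5), and 0 on the other arrays. Of 6 plasma cell markers the sums were 21778 and 27418 on the GC arrays and 10912 and 7949.7 on the naive arrays. By limma 3 of them were called higher and 3 were not called. Jchain read 9253 and 10618 on the GC arrays against 1707 and 827 on the naive arrays. Sdc1 was 1.81-fold lower in GC cells of pLN and 4.21-fold higher in those of PP, and Irf4 differed by -0.16 ± 0.40. Among 8 T cell markers, 8 (GC) and 7 (naive) passed the level in pLN, and 8 (GC) and 2 (naive) in PP. By limma Cd3g was called higher (1.77 ± 0.63), Cd2 was called lower (1.93 ± 0.48) and 6 were not called. Cd3d, Cd3e and Cd3g were highest on GC PP, at 236, 244 and 204. In contrast, Cd4, Cd8a, Il7r and Thy1 were highest on naive pLN, at 155, 548, 244 and 202, and Cd2 on naive PP, at 14643. The part of any of these cell types in the higher Lgmn and Ctsc signals was not tested.

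PP and pLN were then compared within each cell type, a contrast that the choice of members did not use. With 1 array on each side no test is possible. In GC cells the folds of the 21 probe sets ran from 1.03 for Ctsh 1418365_at to 1.81 for Fuca1 1437772_s_at, and none reached 2-fold. Over all probe sets above the level on either GC array, 4.88% were 2-fold higher in PP and 1.51% lower, so a count of 0 in 21 lies near the share over all probe sets. The median log2 difference was -0.25 for the members and 0.02 for all.

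In naive cells, by the same rule, 2 probe sets were higher in PP, Ctsh 1418365_at (2.01-fold) and Fuca1 1456155_x_at (2.57-fold), against 8.08% of all probe sets. The 3 probe sets of Ctsz came next among the higher ones, from 1.63-fold to 1.89-fold. Lower in PP were 4 probe sets, Ctsc 1416382_at (3.98-fold) and 1437939_s_at (2.13-fold), Ctsd (2.80-fold) and Ctsb 1417491_at (at least 2.03-fold), against 13.3% of all. Both counts lie near the shares over all probe sets, which were also more often 2-fold apart in naive than in GC cells. Ctss, at 1.97-fold lower, lay just under the threshold. This comparison shares both naive arrays with the GC-naive comparisons above, so the values are not independent of them. No member was 2-fold higher or lower in PP in both cell types.

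**Figure D3:**
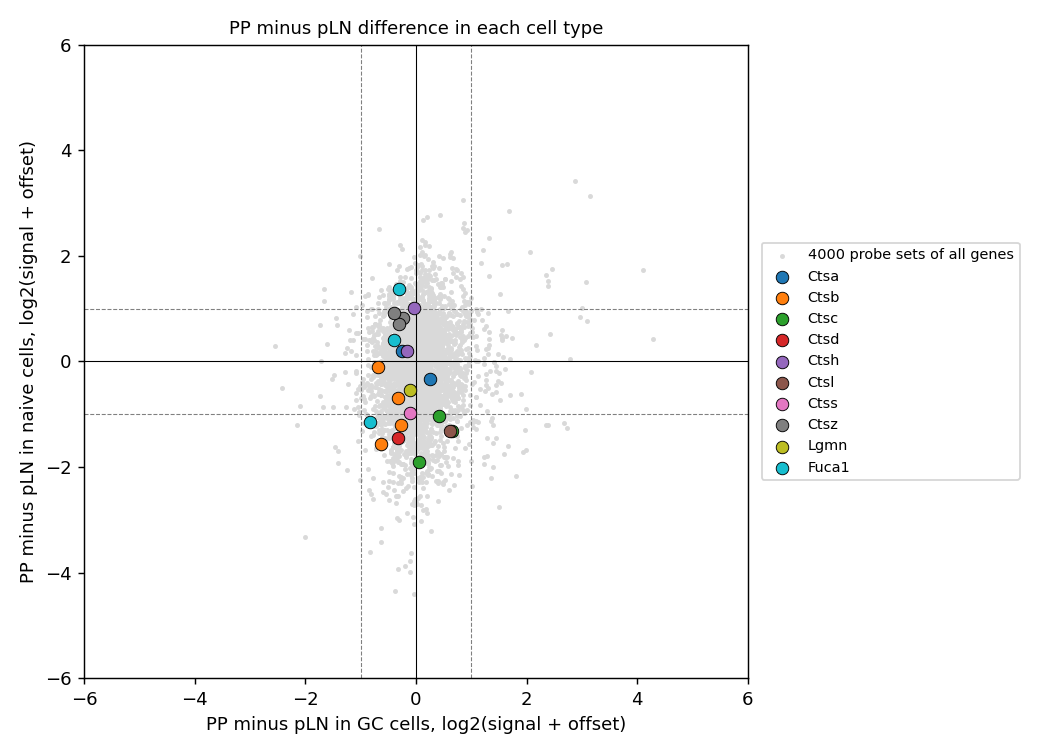
PP minus pLN difference in GC cells (x axis) and in naive cells (y axis) on the log2(signal + offset) scale for the same 21 probe sets, with 4000 probe sets of all genes in grey and dashed lines at 2-fold. All members lie between the vertical lines, from -0.82 to 0.65, and they extend from -1.91 for Ctsc to 1.36 for Fuca1 along the vertical axis.

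The naive PP array had the highest Gapdh ratio, as given above, and the highest summed signal of gut epithelial genes. Of 7 epithelial markers, 7 were above the level on GC PP and 6 on naive PP, against 1 on each pLN array. Their sums were 2035 on GC PP and 5027 on naive PP, against 494 on GC pLN and 1213 on naive pLN. The keratin gene Krt8 read 1241 on naive PP and 19.0 on naive pLN. Lgals4 was nearly equal on these 2 arrays, at 1058 and 1023. Epcam was highest on GC PP, at 140, and below the level on naive PP, at 60.5. The part of epithelial RNA and of the 3' bias in the differences between naive arrays was not tested.

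The rest of the lysosome was read from a list of 92 genes picked by function, of which 84 were on the array and 78 tested. GC cells had 27 of these 78 lower and 9 higher at a limma adjusted p under 0.05, and 42 were not called. Over all 10588 genes tested, 22.0% were lower and 22.8% higher. The list had 34.6% lower and 11.5% higher, with a median log2 fold of -0.52 beside -0.02 for all genes, and it was -0.53 with dim signals set at the level. The SE reflects how far pLN and PP disagreed over all genes more than in the gene itself, with 1 residual and 12.1 prior degrees of freedom. The picture depends on probe sets and scaling. When the probe sets of a gene were averaged 14 were lower and 16 higher, beside 1718 lower and 2887 higher of all 10638 genes. The median was then -0.10 for the list and 0.21 for all genes. With spike-in scaling 0 were lower (1 at an unadjusted p under 0.05) and 10 higher (over all genes 74 lower and 2984 higher). With either GC array left out, which also dropped the tissue block, fewer genes were called lower, on the list and over all genes. The list median was then -0.62 without GC pLN and -0.39 without GC PP, beside -0.007 and -0.03 over all genes. With either naive array left out, more genes were called higher and lower, again on both. Of the genes named next, Man2b1, Sumf1, Sgsh, Atp6v1d, Mitf and Tfe3 were not called without either of the GC arrays, and Atp6v1b2 and Zkscan3 not without GC PP. Man2b1, Sumf1, Prcp and Mitf lost their call with averaged probe sets, and Tfe3 without the filter on dim genes or without the intensity trend. With spike-in scaling each named gene called lower lost its call.

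The list was then read by functional group. Of 14 glycosidases, 7 were lower and 1 higher. Gaa, the acid alpha-glucosidase that degrades glycogen, read 199 (GC) and 1999 (naive) in pLN and 213 (GC) and 3671 (naive) in PP. It was lower by 3.64 ± 0.40 (limma adjusted p = 4.18e-05), and both of its probe sets were lower. Man2b1, an alpha-mannosidase, was lower by 1.73 ± 0.42 (limma adjusted p = 0.0054), but its second probe set was at 0.83. Manba, the beta-mannosidase, was the exception, with GC cells 6.06-fold above naive cells in pLN and at least 7.60-fold above them in PP. Among 6 sulfatases and their activators, Sumf1, which activates all sulfatases, and Sgsh were called lower, but another Sumf1 probe set was at 0.17. Of 18 other hydrolases and activators, 9 were lower and 2 higher. Naaa, an acid amidase, was lower by 2.30 ± 0.44, but another of its probe sets was at -0.036. Prcp, a carboxypeptidase, was lower by 2.14 ± 0.39, although another Prcp probe set was at 1.85. With quantile normalization Prcp was called higher (1.35, limma adjusted p = 0.0102). Asah1, the acid ceramidase, was higher by 2.49 ± 0.41 (limma adjusted p = 0.0005).

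Membrane, pump and sorting genes gave a mixed picture. Of 12 membrane genes 3 were higher and 3 lower. Lamp2, a main coat protein of the lysosome, read 3646 (GC) and 598 (naive) in pLN and 3075 (GC) and 536 (naive) in PP. It was higher by 2.54 ± 0.37 (limma adjusted p = 0.00025), with other probe sets down to -0.54. Laptm4a was higher by 2.65 ± 0.39, and the calcium channel gene Mcoln1 was lower by 2.50 ± 0.39, with both ends of its probe set range negative. Of 14 subunits of the proton pump that acidifies the lysosome, 4 were called lower. Atp6v0b was lower by 2.28 ± 0.44, Atp6v1b2 by 1.47 ± 0.38 and Atp6v1d by 1.24 ± 0.43, and each had another probe set above 0, at 1.5, 1.03 and 1.54. Atp6v1d was not called with quantile normalization (-0.60, limma adjusted p = 0.0892) or cyclic loess (-0.39, limma adjusted p = 0.386), and with averaged probe sets all 3 lost their call. Of 5 sorting genes only Igf2r, a mannose 6-phosphate receptor, was called, 5.69-fold higher in GC cells of pLN and at least 7.55-fold higher in those of PP. M6pr, another such receptor, differed by 0.20 ± 0.37 and was not called, with another probe set at 1.62. Of 3 other cathepsins tested, Ctso was higher by 2.75 ± 0.40 (limma adjusted p = 0.00025) and the other 2 were not called.

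**Figure D4:**
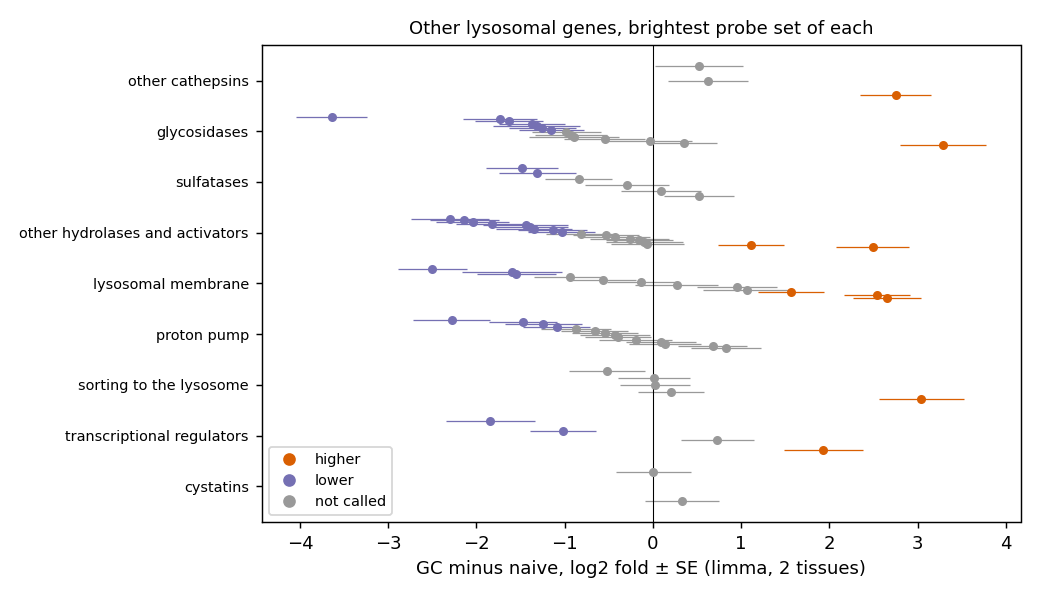
GC minus naive log2 fold ± SE (limma, over 2 tissues) of the 78 tested genes of the lysosomal list, each by its brightest probe set, in 9 functional groups. Purple marks genes called lower, orange genes called higher and grey genes not called. The glycosidases and other hydrolases lie mostly left of 0, and with spike-in scaling the list had 0 genes called lower.

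The regulators of lysosomal genes and the inhibitors of cathepsins were read by role. Tfeb, the master regulator of lysosome formation, read 831 (GC) and 380 (naive) in pLN and 879 (GC) and 684 (naive) in PP, and its log2 fold of 0.73 ± 0.41 was not called (limma adjusted p = 0.162), although it was without the naive PP array (1.15). Its relative Tfe3 was lower by 1.02 ± 0.38 (limma adjusted p = 0.0413), and this changed sign with spike-in scaling (0.40). Mitf, another of the family, was at least 4.63-fold lower in pLN and at least 3.92-fold lower in PP, with GC signals of 29.5 and 38.4 below the level. Zkscan3, a repressor of these genes, was higher by 1.93 ± 0.45 (limma adjusted p = 0.0041). The cystatins Cst3 and Cstb, which inhibit cysteine cathepsins, differed by 0.0043 ± 0.42 and 0.33 ± 0.42 and were not called, although Cstb was without the naive pLN array (1.02) and with spike-in scaling (1.75). The invariant chain gene Cd74 differed by -0.73 ± 0.51 and was not called (limma adjusted p = 0.26); with quantile normalization it was called at 0.93, and without the naive pLN or the naive PP array it was called at -1.0 and -0.46.

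Genes with a profile like that of Fuca1 were ranked by Euclidean distance between centred log2 signals of the brightest probe sets on the 4 arrays, over 10587 tested genes. The nearest was Kbtbd11 (distance 0.32), followed by Serpinb1a (0.50) and Fam234a (0.64). Kbtbd11 read 983 (GC) and 11362 (naive) in pLN and 823 (GC) and 23028 (naive) in PP. The likeness is to 1456155_x_at alone, the Fuca1 probe set with the highest mean signal, and rests on 4 arrays. That probe set holds the low reading by which Fuca1 was chosen, so nothing is read from the ranking. No other Kbtbd11 probe set was above the level on more than 1 array. The ranked Serpinb1a probe set differed by -3.48 in pLN and -5.86 in PP, and its other probe set by -1.89 and -2.71.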

How the data were processed

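The deposited values are intensities of single-colour Affymetrix arrays on a linear scale, 1 array for each of 4 populations, and every array has a median of 1, so the authors' signals appear divided by it. GCOS is named in the submitters' processing notes, and its version, algorithm and target are details not given in the sources used here. Signals were multiplied per array so that their 2% trimmed mean was 500. The median signal of 74 probe sets for genes of other tissues, 12.2, was added before log2, and their 90th percentile was the detection level. Symbols came from the platform annotation: 34958 probe sets had 1 symbol, 932 had several and 9211 were not listed. Of these, 34754 matched RefSeq by Entrez identifier, which changed 0 symbols. A gene was represented by its brightest probe set (highest mean log2 signal) and tested if both GC or both naive arrays passed the level.

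The GC-naive test was limma 3.58.1 in R 4.3.3. The model had tissue as the block and an intensity trend (prior degrees of freedom 12.1), with Benjamini-Hochberg adjustment over all genes. The script was tested on simulated data. The p-values set the mean fold of 2 tissues against a spread between tissues that is taken largely from all genes. They hold no variation between replicates of a population. Members received no test. The named genes were all member probe sets, up to 3 called genes of each functional group by size of fold, Tfeb, Tfe3, Mitf, Cst3, Cstb and Cd74 by role, and the 3 nearest to Fuca1. Some markers above the level or defining a cell type were named, and others were only counted or summed. Stromal and erythroid markers were read but are not described. Members and lists were chosen with earlier results of these data known. Alternatives covered scaling, offset, filter, probe sets, block, trend and each array left out. Spike-in scaling and a larger background list were added after seeing the data. Coordinates of promoters are those of RefSeq.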

Additional observations from a re-analysis of the deposited data

Results flagged for a closer look

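For 3 member probe sets the GC-naive difference had opposite signs in the 2 tissues and a fold could be given in both. Ctsb 1417491_at (-0.66 in pLN and 0.26 in PP) and Ctsl 1451310_a_at (-1.5 and 0.44) also had opposite signs, but on naive PP they were below the level, which exceeded the GC PP signal, so the direction in PP is not settled. Ctsd differed by -0.27 in pLN and 0.86 in PP on the log2 scale, Ctss by -0.64 and 0.24, and Fuca1 1416109_at by 0.17 and -0.63. Each tissue has 1 array of each cell type, so the difference between tissues was not tested. For Ctsd and Ctss the GC arrays lay within 1.26-fold and 1.07-fold of each other, and the naive arrays differed 2.80-fold and 1.97-fold.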

How the results depend on the processing

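The 4 arrays limit every value, and dim probe sets on the naive PP array, whose level was highest, give only bounds. Without the tissue block 2013 genes were higher and 2153 lower, and 9 and 24 on the lysosomal list. Offsets and the larger background list moved no count past 1.5 times. The count of member probe sets 2-fold lower in both tissues went from 4 to 7 with the deposited scaling and to 1 with spike-in scaling. That of 2-fold higher probe sets went from 5 to 3 with quantile normalization, 3 with cyclic loess and 2 among probe sets above the level on all 4 arrays. No member was 2-fold apart between PP and pLN in both cell types under any scaling, offset or filter tried.

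Spike-in scaling left 74 of all genes and 0 of the lysosomal list called lower by limma (1 at an unadjusted p under 0.05). With the mean of all probe sets, 16 genes of the list were higher and 14 lower, beside 2887 higher and 1718 lower over all genes. With each probe set as its own row, 6197 of 20211 probe sets were higher and 3388 lower over all genes. On the list 34 of 144 were then higher and 33 lower. Leaving out 1 array, without the block, gave 1073 to 3422 genes higher and 804 to 3167 lower over all genes, and 6 to 16 higher and 5 to 35 lower on the list. Among named genes of the list and Cd74, signs reversed with quantile normalization for Prcp (1.35) and Cd74 (0.93), both then called higher, with cyclic loess for Cd74 (0.59) and with spike-in scaling for Sgsh (0.068), Atp6v1d (0.18), Tfe3 (0.40) and Cd74 (0.70). Cst3, near 0, was negative with the deposited scaling (-0.13). They reversed with the mean of all probe sets for Prcp (0.17), Atp6v1b2 (0.12) and Atp6v1d (0.54). The causes were not tested. Of the 21 member probe sets, 11 turned positive with spike-in scaling, among them 2 that were 2-fold lower in both tissues, Ctsb 1417490_at (0.067) and Ctsh 1443814_x_at (0.14). Quantile normalization turned Ctss (0.59) and Ctsd (-0.24), and cyclic loess turned Ctss (0.67), Ctsd (-0.20) and Fuca1 1416109_at (0.064). The signs of all 21 member probe sets were kept with the deposited scaling, both offsets and the larger background list. They were kept for 19 with quantile normalization, 18 with cyclic loess and 10 with spike-in scaling. A kept sign is not a kept size, since the means of Ctsh and Ctsz shrank with quantile normalization and cyclic loess.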

Other observations

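Ctse, an aspartic protease of endosomes that was on the list of other lysosomal genes, is named here after its values were seen. Its brightest probe set, 1418989_at, read 288 (GC) and 234 (naive) in pLN and 396 (GC) and 196 (naive) in PP, and was not called. A second, 1427797_s_at, read 1654 and 2429 on the GC arrays against 1.7 and 43.2 on the naive arrays, both below the level, which is at least 22.6-fold and at least 21.4-fold higher in GC cells. The carboxypeptidase gene Scpep1, also named after its values were seen, showed the same split. Its 1426555_at read 1132 on GC pLN and 1190.4 on naive pLN, and 1455908_a_at read 912 and 129, and in PP the first read 696 and 825 and the second 665 and 26.8, the last below the level. No test was made of these differences between probe sets.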
